A study of Mus musculus with 10 samples.

Results

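The transfer RNAs (tRNAs) with a long variable arm are those for leucine (Leu), serine (Ser) and selenocysteine (SeC). They were taken from the small RNA of mouse sperm as the 10 rows named tRNA-Leu-AAG, tRNA-Leu-CAA, tRNA-Leu-CAG, tRNA-Leu-TAA, tRNA-Leu-TAG, tRNA-Ser-AGA, tRNA-Ser-CGA, tRNA-Ser-GCT, tRNA-Ser-TGA and tRNA-SeC-TCA, out of 51 nuclear tRNA rows in all. Each row stands for 1 amino acid and 1 anticodon. The reads of each tRNA were divided into 4 parts: those at its 5′ end, at its 3′ end, at a 3′ end that carries the added CCA, and the remainder, called internal here, which gives 40 parts for the 10 members. The choice used names alone and no measured value, but it was made with earlier results of these data known.

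The sperm came from C57BL/6J males that were 4 weeks old when they were placed for 10 weeks on food with 10% of its kcal from fat (the control diet, CD) or with 42% (the high-fat diet, HFD). Mature sperm were collected from the epididymal tail and the vas deferens, RNA of up to about 30 bases was cut from a gel, and 5 CD-F0 and 5 HFD-F0 samples were sequenced. No genetic change or other agent was used. The sources used here do not say whether a sample was 1 mouse or a pool, so the p-values measure the spread between these samples only. In bulk RNA of this kind, fewer cells of a type and less RNA per cell cannot be told apart.

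Leucine and serine tRNAs, and the tRNA that inserts selenocysteine at UGA codons, carry a stem between the anticodon arm and the T arm where other nuclear tRNAs have a few bases. Seryl-tRNA synthetase, which charges both serine and selenocysteine tRNAs, recognises that arm, and leucine and serine tRNAs are charged largely without reading the anticodon. Enzymes such as angiogenin cut mature tRNAs in or near the anticodon loop, and the 5′ pieces that result are abundant in mature sperm. A read that starts at the first base and is of this size therefore ends before the variable arm is reached.

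RefSeq (GRCm38, the build that the labels call mm10) listed 46 genes for 9 of the 10 anticodons on 11 chromosomes, 19 of them on chromosome 13, from 3 genes for Leu-TAA, Leu-TAG, Ser-CGA or Ser-TGA to 10 for Leu-CAG. The genes were 82 or 83 bases long except those for Leu-CAA, which hold an intron and run to 105 to 107 bases. The counts add up reads over such copies and are not values of single genes, and a read that fits several tRNAs was divided between them, which makes the split between anticodons with shared ends uncertain.

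Depth was even, with 29558751 to 32178088 clean reads per sample, of which 92.6% to 95.2% were annotated. Reads that matched the genome made up 64.9% to 75.2% of clean reads in the CD-F0 samples and 73.3% to 74.7% in the HFD-F0 samples. MicroRNAs known as markers of germ cells (3 of 3, summed level 7272 to 15059 RPM, reads per 1000000 clean reads, over the 10 samples), epithelium (6 of 6, 3969 to 9463), muscle (6 of 6, 15876 to 36525) and blood or immune cells (7 of 7, 3249 to 6033) were found in every sample, none at 0, and the groups overlapped for each list. The part of cells other than sperm in the results was not tested.

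Together the 10 tRNAs took 3.98% ± 0.673 (SD, n = 10) of the clean reads and 16.2% ± 2.95 of the nuclear tRNA reads. Serine tRNAs held 56.1% ± 4.47 of the member reads, leucine tRNAs 41.4% ± 4.44 and the selenocysteine tRNA 2.45% ± 0.297. The 10 members made up 18.3% ± 3.72 of all nuclear 5′ end reads, against 9.88% ± 2.60 of the internal and 9.53% ± 0.910 of the CCA end reads. Their weight in sperm tRNA was thus greatest at the 5′ end.

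tRNA-Ser-GCT, which reads the serine codons AGC and AGU, was the most abundant, at 10998 ± 2978 RPM (SD, n = 10). Its total was 13999, 12038, 4604, 8796 and 13447 RPM in CD-F0 replicates 1 to 5 and 14112, 11913, 8356, 11029 and 11684 in HFD-F0 replicates 1 to 5. CD-F0 replicate 3 was the lowest of the 10, and all HFD-F0 samples but 1 lay inside the CD-F0 range. Its 5′ end reads followed, from 3977 to 13391 in the CD-F0 and from 7765 to 13276 in the HFD-F0 samples.

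tRNA-Leu-AAG, the reader of CUU codons and, through its modified first anticodon base, of CUC, came next at 7327 ± 1650 RPM. It stood at 10548, 9061, 7055, 4722 and 7493 in CD-F0 and at 7363, 5787, 6047, 7391 and 7806 in HFD-F0. The highest and the lowest sample were both CD-F0, with the HFD-F0 samples between them. tRNA-Ser-AGA, which reads UCU and, through the same modification, UCC and UCA, followed at 7018 ± 969, with 8103, 8336, 6268, 6296 and 6944 in CD-F0 and 8553, 5909, 6391, 6327 and 7057 in HFD-F0. The samples of the diets were interleaved here too.

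tRNA-Leu-TAG held 5965, 5138, 4137, 2739 and 4135 RPM in CD-F0 and 4267, 3244, 3458, 4110 and 4333 in HFD-F0. Samples that were high for Leu-AAG were high for Leu-TAG. tRNA-Leu-TAA, the reader of UUA codons, held 3868, 4152, 3852, 3713 and 3235 in CD-F0 and 5251, 2356, 3334, 2390 and 3564 in HFD-F0. The HFD-F0 samples reached above and below the whole CD-F0 range, with an SD of 1180 against 336. tRNA-Ser-TGA held 3611, 4095, 2909, 2859 and 3946 in CD-F0 and 3676, 2926, 2946, 3163 and 3421 in HFD-F0, where every HFD-F0 value lay inside the CD-F0 range.

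The other 4 members were near or below 1000 RPM. tRNA-Ser-CGA, which reads UCG, ranged from 695 to 1504 in CD-F0 and from 695 to 1168 in HFD-F0. tRNA-SeC-TCA, whose product is the UGA-decoding tRNA of selenoproteins such as the sperm glutathione peroxidase Gpx4, held 1016, 1036, 837, 802 and 1021 in CD-F0 and 1012, 900, 983, 844 and 1185 in HFD-F0. Its spread was among the smallest, at 964 ± 117. tRNA-Leu-CAG, the reader of CUG, ranged from 657 to 807 and from 578 to 800, and tRNA-Leu-CAA, the reader of UUG, from 565 to 894 and from 452 to 851.

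**Figure D1:**
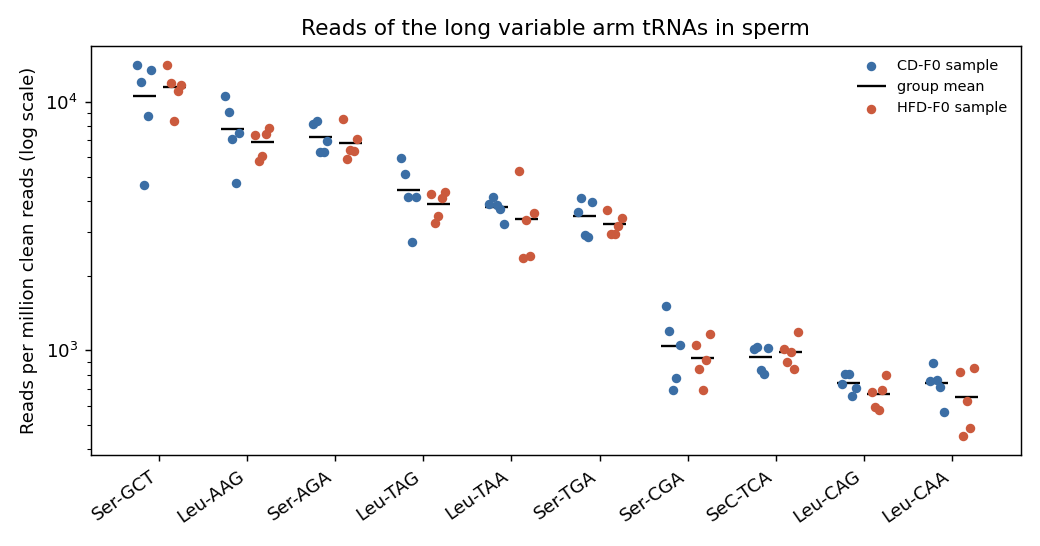
RPM (reads per 1000000 clean reads, log scale) of each long variable arm tRNA, with 1 point per sample and a line at each group mean (n = 5 per group). The groups overlap for all 10 tRNAs, from Ser-GCT at 10998 down to Leu-CAA at 692 RPM on average.

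The order of the members was read from these means, and several neighbours could not be separated. Ser-GCT stood above Leu-AAG in 9 of 10 samples, Ser-AGA above Leu-TAG in 10, Ser-TGA above Ser-CGA in 10 and the selenocysteine tRNA above Leu-CAG in 10. By contrast Leu-AAG exceeded Ser-AGA in 6 samples, Ser-CGA exceeded the selenocysteine tRNA in 5 and Leu-CAG exceeded Leu-CAA in 4, so these pairs did not differ beyond their spread. Leu-TAG exceeded Leu-TAA in 8 samples and Leu-TAA exceeded Ser-TGA in 7. Dividing by the length of the mature tRNA gave 12938 RPM per 100 bases for Ser-GCT down to 820 for Leu-CAG. The 8 members with such a length had 85 or 86 bases with the CCA, too alike for this to change their order. The widest step, from Ser-TGA to Ser-CGA at a ratio of means of 3.39, divided the members into an abundant set of 6 and a scarce set of 4.

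Serine tRNA reads came almost wholly from the 5′ end. The 5′ end held 92.1% ± 1.70 of serine reads (SD, n = 10), 76.1% ± 7.38 of leucine reads and 47.8% ± 4.24 of selenocysteine tRNA reads. Internal reads held 6.86% ± 1.53, 22.6% ± 7.49 and 41.3% ± 5.03 in the same order. In the summed reads of the 40 tRNAs of other amino acids, the 5′ end held 72.9% ± 1.96 and internal reads 24.6% ± 2.07. The serine value thus lay above, and the selenocysteine value below, that of the other amino acids in every sample, since their ranges of 88.5% to 93.8% and 40.1% to 53.9% did not touch the 69.4% to 75.3% of the others. The leucine range, 65.0% to 86.0%, spanned it.

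Within serine every anticodon had a high 5′ share: the 5′ end held 93.6% ± 2.80 of Ser-GCT, 92.3% ± 0.916 of Ser-AGA, 89.1% ± 1.26 of Ser-TGA and 81.9% ± 4.06 of Ser-CGA reads. Leucine was not uniform. Leu-TAG and Leu-AAG, at 89.4% ± 2.73 and 88.0% ± 2.38, were like serine, whereas Leu-TAA held 57.7% ± 18.6, Leu-CAG 34.7% ± 6.25 and Leu-CAA 21.0% ± 8.25. Internal reads made up 78.2% ± 8.53 of Leu-CAA and 63.4% ± 6.56 of Leu-CAG, the only members for which they were the largest part.

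Against the other 41 nuclear tRNAs, which include tRNA-Ser-GGA, a serine tRNA outside the list, the 5′ end was the largest part in 8 of 10 members and in 16 of 41 others. The median 5′ share was 85.0% over the members and 42.8% over the others, but the others also reached 94.9%, and 7 of 41 passed 90% as against 2 of 10 members. A high 5′ share was therefore common among these tRNAs and found in others as well, and the counts are a description without a test. The composition nearest to that of the summed members was that of Ser-GGA, at a distance of 3.57 percentage points, followed by the initiator tRNA-iMet-CAT at 3.73 and tRNA-Ala-CGC at 7.60. Ser-GGA itself was rare, with 27.1 to 71.0 RPM.

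**Figure D2:**
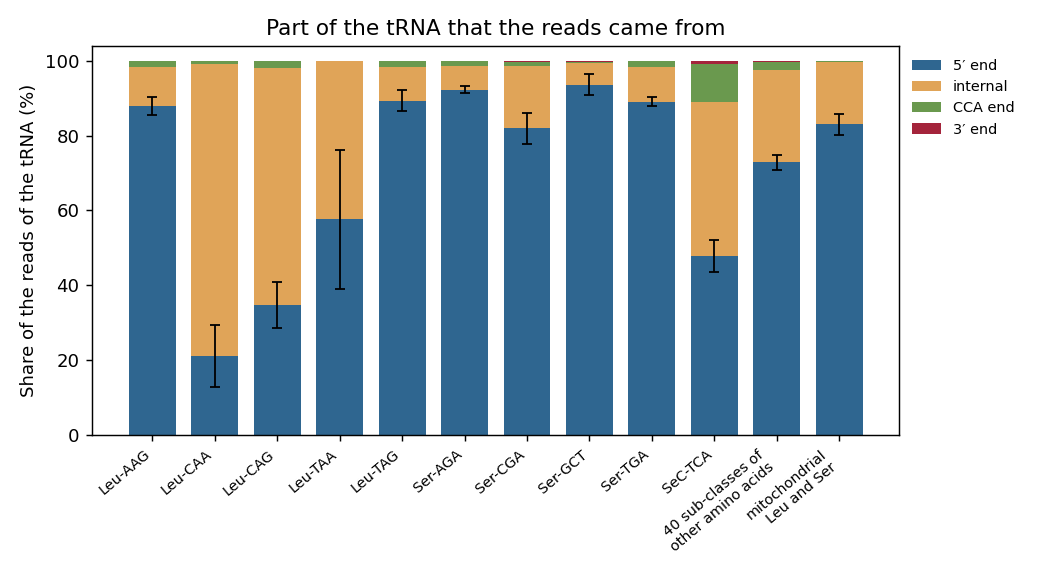
Share (%) of the reads of each tRNA at the 5′ end, inside the tRNA, at the CCA end and at the 3′ end, as means over the 10 samples, with the SD of the 5′ share as a bar. The 5′ end holds over 80% in Ser and in Leu-AAG and Leu-TAG, against 34.7% in Leu-CAG and 21.0% in Leu-CAA.

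Reads that carried the CCA tail, which is added after transcription and marks a mature 3′ end, were few apart from 1 member. They made up 10.1% ± 2.33 of the selenocysteine tRNA reads, the rank 5 of all 51 nuclear tRNAs, with 83.4, 91.3, 68.9, 74.5 and 124 RPM in CD-F0 and 78.1, 130, 118, 101 and 99.4 in HFD-F0. In the other members CCA end reads ranged from 0.132% of Leu-TAA to 1.78% of Leu-CAG. Because CCA is not encoded, such reads mostly failed to match the genome: 99.4% ± 0.282 of those of Ser-GCT and 94.6% ± 1.05 of those of the selenocysteine tRNA were unmatched, but only 12.7% ± 5.44 of those of Leu-TAA and 30.7% ± 8.38 of those of Ser-AGA. Shares of the CCA end that leave unmatched reads out are thus lower by unequal amounts. Reads at the 3′ end without CCA were at most 0.812% of any member's reads on average.

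Internal reads of Leu-TAA varied far more between samples than its 5′ end reads did. The internal level of Leu-TAA was 1834, 1918, 2563, 2170 and 531 RPM in CD-F0 and 2888, 497, 1885, 361 and 1400 in HFD-F0. CD-F0 replicate 5 and HFD-F0 replicates 2 and 4 were far below the other 7, at 361 to 531 against 1400 to 2888. Its 5′ end reads were 2031, 2229, 1287, 1538 and 2698 in CD-F0 and 2360, 1854, 1443, 2024 and 2158 in HFD-F0, where the same 3 samples held 1854 to 2698 and the other 7 held 1287 to 2360. In consequence the 5′ share of Leu-TAA was 78.7% to 84.7% in those 3 samples and 33.4% to 60.5% in the others.

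The same 3 samples held the lowest internal levels of 6 of 10 members: Leu-AAG, Leu-CAA, Leu-TAA, Leu-TAG, Ser-AGA and the selenocysteine tRNA. Because these samples were picked by their internal Leu-TAA reads, after the values were seen, Leu-TAA is in this count by definition. For Leu-CAA they held 312 to 364 RPM of internal reads against 504 to 707 in the others, and for Leu-TAG 200 to 221 against 314 to 519. For the selenocysteine tRNA the gap was narrow, at 305 to 344 against 364 to 459. Among the other 41 nuclear tRNAs this held for 3, Gln-CTG, Gln-TTG and Sup-TCA, and it held for no tRNA, member or not, at the 5′ end. The 3 samples come from both diets and were not used as a group in any test.

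**Figure D3:**
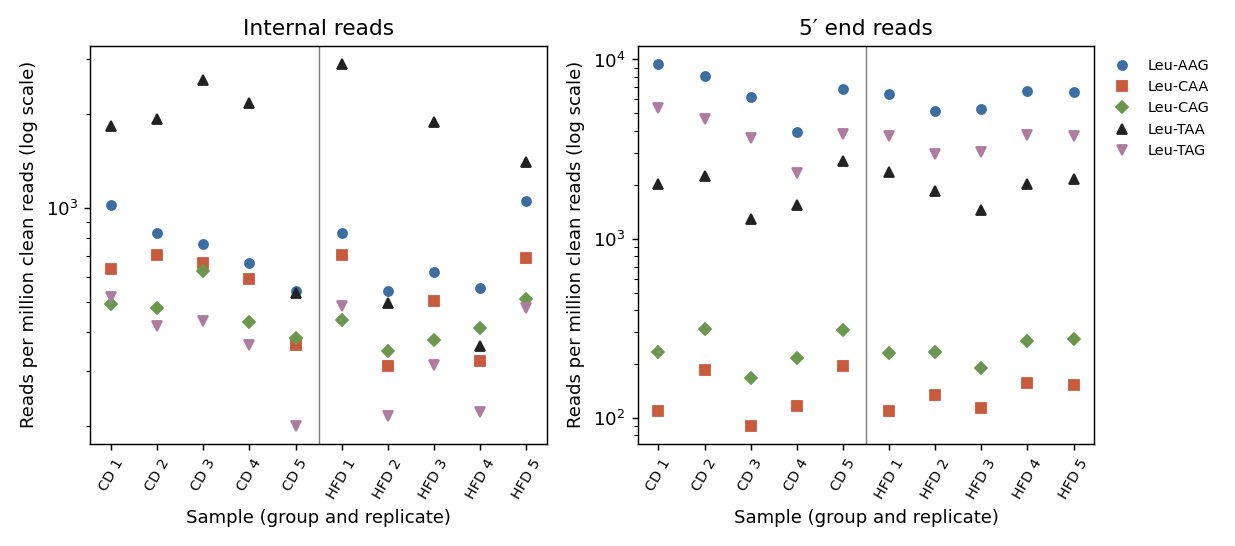
Internal reads (left) and 5′ end reads (right) of the 5 leucine tRNAs in each of the 10 samples, in RPM (log scales of different range), with CD-F0 left and HFD-F0 right of the line. Internal Leu-TAA reads fall to 361 to 531 in CD 5, HFD 2 and HFD 4, while its 5′ end reads stay between 1287 and 2698 in all samples.

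Some members kept a nearly fixed ratio at the 5′ end. Leu-AAG 5′ end reads were 1.70 to 1.77 times those of Leu-TAG in all 10 samples, although each varied more than 2-fold, while their internal reads had ratios of 1.71 to 2.70. Ser-AGA 5′ end reads were 1.82 to 2.46 times those of Ser-TGA. Ser-GCT had a ratio to Ser-AGA of 0.694 in CD-F0 replicate 3 and of 1.32 to 2.08 in the other samples. The 5′ end counts of both pairs include divided reads, since they are fractional. In CD-F0 replicate 1 they were 287071.09 for Leu-AAG, 164040.91 for Leu-TAG, 229256.78 for Ser-AGA and 99085.89 for Ser-TGA. That of Ser-GCT was whole, at 407504. The separate 5′ levels within each pair are thus uncertain. Whether the division of shared reads sets the ratio of Leu-AAG to Leu-TAG, or that of Ser-AGA to Ser-TGA, was not tested.

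**Figure D4:**
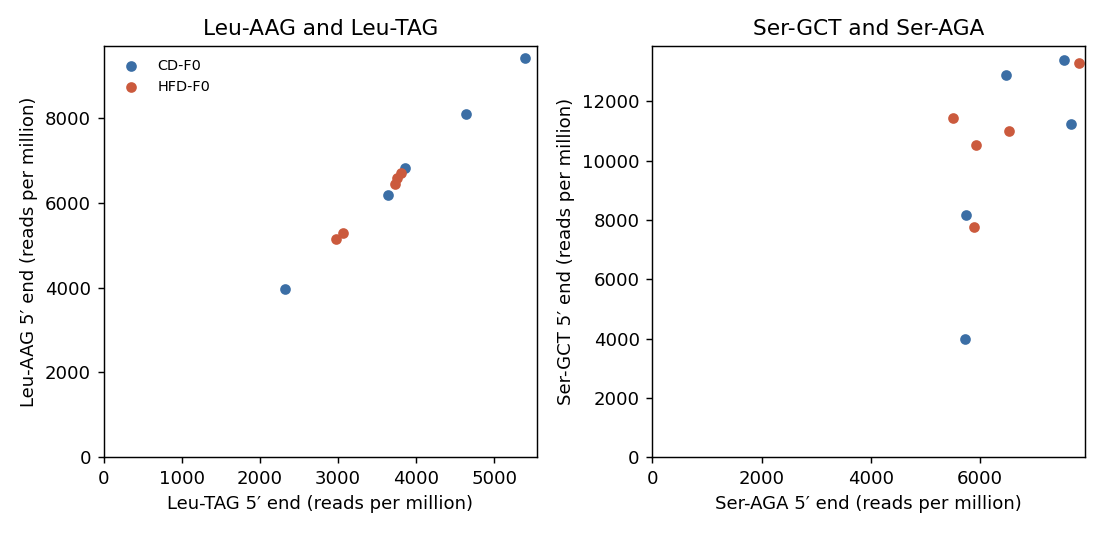
5′ end levels (RPM) of Leu-AAG against Leu-TAG (left) and of Ser-GCT against Ser-AGA (right), with 1 point per sample. The left points lie along a line, at ratios of 1.70 to 1.77, and the right points scatter, at ratios of 0.694 to 2.08.

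The diet comparison asked whether any of these tRNAs or their parts differed between HFD-F0 and CD-F0 sperm. None of the 10 whole tRNAs and none of the 38 parts with enough reads was called different by edgeR's quasi-likelihood test at the thresholds of the study, an unadjusted p of at most 0.05 and at least a 2-fold change. Over all RNA classes the background was 2.96% of the 641 features called in the fit with whole tRNAs (19 features) and 3.69% of 814 in the fit with parts (30 features). Of the other nuclear tRNAs, 0 of 41 totals and 3 of 155 parts were called by edgeR, with 2 totals and 6 parts at an unadjusted p of 0.05 or less, and DESeq2 called as many. No whole tRNA and no part of a member reached an unadjusted p of 0.05 either, in edgeR or in DESeq2, and the lowest edgeR p over the parts was 0.0948 for internal Leu-CAG reads (adjusted p = 0.547). Parts not fitted were the 3′ ends of Leu-CAA and Leu-TAA, with at most 17.7 and 14.0 reads in a sample.

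For the most abundant tRNA the estimate was close to zero. The Ser-GCT total had a log2 fold change of 0.02 ± 0.27 (SE, edgeR adjusted p = 0.995) and its 5′ end 0.01 ± 0.29 (adjusted p = 0.991), both negative when only tRNA features were scaled together. The selenocysteine tRNA stood at -0.01 ± 0.15 (adjusted p = 0.984), a value that turned positive with DESeq2 or with clean reads as the scale, with 0.02 ± 0.19 at its 5′ end (adjusted p = 0.991), negative with tRNA features only, and -0.13 ± 0.15 for its internal reads (adjusted p = 0.853). For neither tRNA was a direction shown.

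The estimates for leucine totals and 5′ ends lay below zero, and none passed the test. The Leu-AAG total had a log2 fold change of -0.25 ± 0.21 (edgeR adjusted p = 0.700) and its 5′ end -0.29 ± 0.21 (adjusted p = 0.675), and the Leu-TAG 5′ end, the other large leucine part, -0.30 ± 0.21 (adjusted p = 0.660). The totals of Leu-CAA, Leu-TAA, Leu-TAG and Leu-CAG were at -0.28 ± 0.19, -0.27 ± 0.16, -0.27 ± 0.20 and -0.22 ± 0.15, with adjusted p of 0.556 to 0.649 by edgeR. The Ser-AGA 5′ end was at -0.18 ± 0.13 (adjusted p = 0.684), and the totals of Ser-AGA, Ser-CGA and Ser-TGA at -0.16 ± 0.13, -0.24 ± 0.24 and -0.19 ± 0.14. None of these differences was larger than the spread between replicates by this test.

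Of the 10 totals, 9 had a negative estimate, 8 with DESeq2 or with clean reads as the scale and 10 with tRNA features only. Negative estimates were also found by edgeR for 26 of 41 other nuclear tRNA totals and for 53.0% of all 641 features. The median log2 fold change of the 10 totals was -0.23, against -0.07 over the other nuclear tRNA totals and -0.04 over all 641 features. Clean reads in place of edgeR's normalisation moved the median of all features by 0.0912. Internal reads were estimated lower in HFD-F0 for 10 of 10 members under each scaling, with a median of -0.22, against 19 of 41 other nuclear tRNAs and a median of 0.01. The ends with CCA went the other way, with positive estimates for 8 of 10 members and a median of 0.15, and the 3′ ends were split 4 and 4 with a median of 0.03. In other nuclear tRNAs the CCA end was estimated lower for 15 of 39, with a median of 0.05. Their 3′ end was lower for 9 of 36, with a median of 0.20. Mostly positive estimates at the CCA end were thus not particular to the members. These are counts of estimates that share samples and reads, and no member passed the test. The 19 calls among the 641 features of all RNA classes were 31.6% upward, or 45.0% upward with clean reads as the scale, and none was a member or another nuclear tRNA total.

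The intervals show what size of change the data allow. The 95% intervals of all 10 totals lay within a 2-fold change in either direction, from -0.76 to 0.61 on the log2 scale, as did those of 32 of 38 parts. Among abundant parts, internal Leu-TAA reads were the exception, at -0.52 ± 0.51 with an interval from -1.63 to 0.59, the part with the low values in 3 samples of both diets. That interval reaches down to a 3.09-fold lower level.

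**Figure D5:**
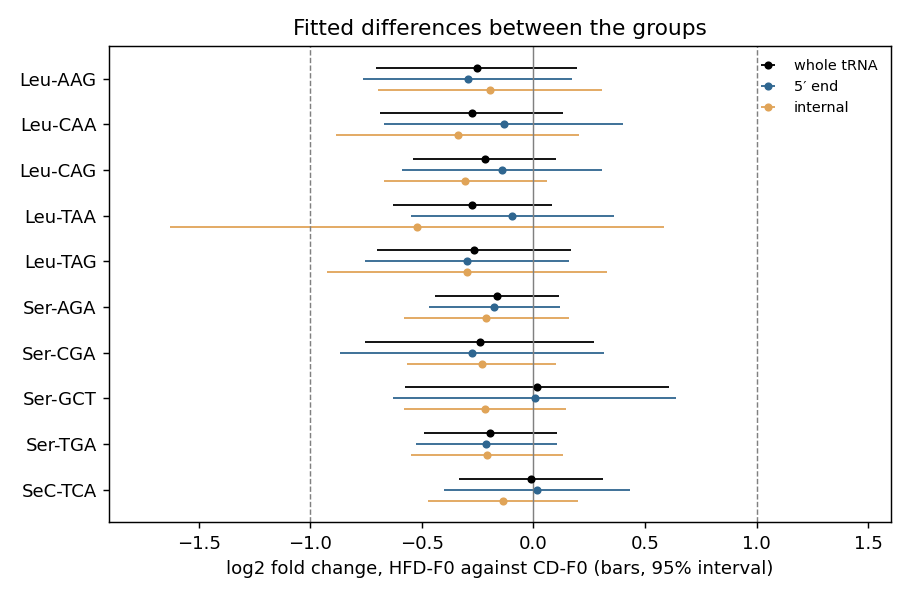
Fitted log2 fold change of HFD-F0 against CD-F0 (points) with 95% intervals (bars) for the whole tRNA, its 5′ end and its internal reads, for each member. Every interval includes 0, and that of internal Leu-TAA reads, from -1.63 to 0.59, alone passes a dashed line at a 2-fold change.

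At the low end of the counts, the CCA end of Leu-CAA was the only member part whose groups did not overlap, with 5.06, 4.57, 3.68, 2.80 and 4.96 RPM in CD-F0 and 5.16, 5.64, 5.35, 7.11 and 6.43 in HFD-F0. Over all 814 features of that fit, of all RNA classes, 3.93% did not overlap (3.28% of the 641 in the fit with whole tRNAs, where no member total was among them), so 1 of 38 is near the background. Its log2 fold change was 0.41 ± 0.23 (edgeR adjusted p = 0.557), and the gap between the nearest samples, 5.06 and 5.16, was small.

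The share of each part in its tRNA was compared by a two-sided exact permutation test over the 252 assignments of 5 and 5 samples, which can give a p of 0.00794 at the smallest. None of the 40 member shares reached 0.05, against 6.86% of the 204 shares of all nuclear tRNAs, and none of those 204 had an adjusted p of at most 0.05. The lowest member p was 0.0556, for the CCA end of Leu-CAG, at 1.53% of reads in CD-F0 and 2.04% in HFD-F0 (exact permutation test, adjusted p = 0.667). It was 0.00794 without CD-F0 replicate 5 and 0.0397 without HFD-F0 replicate 1 (exact permutation tests, adjusted p = 0.231 and 0.450). Without HFD-F0 replicate 1, 5 of 40 member shares passed 0.05, against 9.80% of all 204 in that setting, and none passed adjustment: the CCA ends of Leu-CAA, Leu-CAG and Leu-TAA and the 3′ ends of Leu-AAG and Leu-TAG. Each of these parts held a small share of its tRNA, at most 2.11% in the HFD-F0 mean of that setting.

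The mitochondrial leucine and serine tRNAs, which are encoded on chrM and are not members, had higher estimates in HFD-F0, none of which passed adjustment. Together they held 107, 273, 272, 236 and 261 RPM in CD-F0 and 305, 338, 366, 760 and 425 in HFD-F0, with no overlap in the sum. Singly, only mt Leu-TAG did not overlap, where 3.28% of all 641 features did not. The sum has no such background beside it. By edgeR the log2 fold change was 0.83 ± 0.38 for mt Leu-TAA (adjusted p = 0.409), 0.85 ± 0.33 for mt Leu-TAG (adjusted p = 0.389), 1.04 ± 0.45 for mt Ser-TGA (adjusted p = 0.405) and 0.70 ± 0.45 for mt Ser-GCT (adjusted p = 0.577). Before adjustment 3 of the 4 passed 0.05 in edgeR, against 11.7% of all 641 features, and 1, mt Ser-TGA, was called, against 2.96%. Of the other 18 mitochondrial tRNAs, 18 had a positive estimate, 9 passed 0.05 and 2 were called, with a median log2 fold change of 0.63 against 0.84 for the 4. HFD-F0 replicate 4 held the highest level of mt Leu-TAA, mt Leu-TAG and mt Ser-GCT, and CD-F0 replicate 1 the lowest of mt Leu-TAA, mt Leu-TAG and mt Ser-TGA. The difference between the mitochondrial and the nuclear tRNAs was not tested.

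Precursor reads were few. The row for unprocessed pre-tRNA of Leu-CAA, the only 1 of 4 such rows that belongs to these amino acids, held 0.0677 to 0.719 RPM. Of the nuclear tRNAs outside the list, the totals that ranked the samples most like the summed members were Thr-TGT (Spearman's rho 0.770, Pearson's r 0.798, n = 10 samples), Ile-AAT (0.721 and 0.767) and Arg-TCT (0.673 and 0.673). These values describe 10 libraries that share their depth scale and the division of each library among classes of RNA.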

How the data were processed

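Small RNA of mature sperm was sequenced in 5 CD-F0 and 5 HFD-F0 samples. Alignment by the authors used the SPORTS pipeline (Bowtie, 1 mismatch allowed) against the mouse genome (mm10 per the labels) and sets of small RNA, and the authors deposited estimated counts per class and sub-class, not scaled by depth. Reads with more than 1 possible sub-class are divided among these. Versions, database releases and the use of the molecular identifiers are not given in the sources used here.

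Genome-matched and unmatched counts of each sub-class were added, and internal reads were taken as the total minus the end reads. Levels are in RPM, reads per 1000000 clean reads (29558751 to 32178088 per sample). Counting error is small at this depth, and SDs over samples are given. Sub-class names matched all 10 members. The members and lists were chosen with earlier results of these data known. All 10 members are named with their total and largest part, and a part is given with its fold change where it reached an unadjusted 0.05 in edgeR or was among the 2 largest of its amino acid, and any other named part was singled out after its values were seen. Non-members are named for the nearest composition or sample pattern.

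Differences were tested with edgeR 4.0.16 in R 4.3.3 (quasi-likelihood, TMM, filterByExpr) on counts rounded to whole numbers, in 1 fit over all non-overlapping features with tRNAs in 4 parts and 1 with tRNAs as totals, Benjamini-Hochberg adjusted over each whole fit. TMM factors were 0.904 to 1.02 in 9 samples and 1.21 in HFD-F0 replicate 1. Shares were tested by exact permutation (SciPy 1.17.1). DESeq2 1.42.0, other scalings, filters, genome-matched reads and leaving out samples were alternatives. On simulated counts, an unadjusted 0.05 with the right sign was reached by 82.8% of the 99 features changed 2-fold among 802 in the fit of parts and by 85.6% of 97 among 625 in that of totals, with no cut on the fold. The median estimate of these features lay just below the 2-fold cut, with log2 errors of -0.024 and -0.0395. With that cut, as used for the calls, fewer of them would be called. No 2 of the 45 sample pairs agreed within sampling noise. Gene positions and lengths come from RefSeq on GRCm38. Sequences of the genes are not reported here.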

Additional observations from a re-analysis of the deposited data

Results flagged for a closer look

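Of 114 checks of a single sample against the other 4 of its group, over the levels and shares of the members, 5 found a sample far from the rest, in 3 samples. This is 4.39%, where chance gives about 1 in 20. HFD-F0 replicate 1 stood apart with 218 RPM of internal reads for Ser-CGA, against 127 to 150 in the other HFD-F0 samples, with 452 for Ser-TGA, against 249 to 293, and with a 12.3% internal share of Ser-TGA, against 8.04% to 9.16%. It is also the sample with the TMM factor of 1.21. CD-F0 replicate 2 held 752 RPM of internal Ser-GCT reads, against 518 to 578, and HFD-F0 replicate 5 held 639 RPM at the 5′ end of the selenocysteine tRNA, against 424 to 479.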

How the results depend on the processing

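No whole member tRNA and no member part was called under any of the 17 alternatives to each fit, the replicate block included (0 parts and 0 totals called). The replicate numbers did not pair the samples throughout. Same-numbered samples had correlations of 0.32, -0.06, 0.25, -0.18 and -0.11 over all features, and 2 of the 5 numbers, 1 and 3, were best matched by their own. Whether samples of these numbers shared a preparation was not tested. Over all features the block lowered the calls from 19 to 10 for totals and from 30 to 25 for parts. At an unadjusted p of 0.05 in edgeR, the count was 6 of 38 member parts and 1 of 10 totals without HFD-F0 replicate 1 (14.8% and 14.3% of all features), 2 parts without CD-F0 replicate 4 (the 5′ ends of Leu-AAG and Leu-TAG, 8.10% of all) or CD-F0 replicate 5 (13.3%), 1 part and 2 totals without HFD-F0 replicate 5 (10.2% and 11.2%), 1 part without CD-F0 replicate 1 (12.2%) or with clean reads without TMM (11.3%), and 0 otherwise. The 5′ ends of Leu-AAG and Leu-TAG kept a ratio of 1.70 to 1.77 and include divided reads, so they are not 2 separate results. The 6 parts without HFD-F0 replicate 1 included the internal reads of Ser-AGA, Ser-CGA, Ser-GCT and Ser-TGA, all estimated lower in HFD-F0. The remaining parts of that count, the Leu-AAG 3′ end and the Ser-GCT CCA end, were estimated higher. With tRNA features only, the log2 fold change turned to -0.0047 for the Ser-GCT total, -0.032 for its 5′ end and -0.058 for the selenocysteine 5′ end. The selenocysteine total turned to 0.0057 with DESeq2, 0.064 with clean reads without TMM and 0.011 with no filter. Leaving out 1 sample gave -0.18 to 0.15 for the Ser-GCT total, -0.20 to 0.20 for its 5′ end, -0.13 to 0.054 for the selenocysteine total and -0.14 to 0.091 for its 5′ end. Member shares passing 0.05 rose from 0 to 2 with genome-matched reads only (the CCA ends of Leu-CAA and Leu-CAG) and ranged from 0 to 5 with 1 sample left out. These changes hold no call after adjustment, and their cause was not tested. Averaging over members in place of reads gave a 5′ share of 58.2% for leucine and 89.2% for serine and an internal share of 40.6% and 9.58%, since scarce members then weigh as much as abundant ones. Genome-matched reads alone gave CCA shares of 0.258% for leucine, 0.374% for serine and 0.612% for selenocysteine, and a selenocysteine 5′ share of 54.3%, since most reads with CCA are unmatched. Levels kept within 1 SD under 20 alternatives. The 100 checks with a sample left out cannot show stability, since dropping 1 of 10 samples cannot move a mean by 1 SD. Depth limits the 3′ ends, which hold few reads.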
